A study of Mus musculus with 12 samples.

Results

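The inflammatory target genes of NF-kB described here are Icam1, Vcam1, Tnfaip2, Tnfaip3, Csf1, Sod2, Il1b, Birc3, Traf1 and Ccl2. They are known to be induced by NF-kB and were taken by symbol, and each matched 1 row, so that 10 of 23382 rows are concerned. RNA was measured in the hippocampus of mice on a C57BL/6 background, in 12 libraries that form 4 groups of 3: DISC1 mutant mice given THC, DISC1 mutant mice given vehicle, control mice given THC and control mice given vehicle. THC is delta-9-tetrahydrocannabinol, the main psychoactive compound of cannabis, and the mutant line is labelled aDN-DISC1. The title of the series calls the genetic vulnerability astrocyte-specific, places the THC exposure in adolescence and the memory deficit in adulthood, and names NF-kB and COX-2 signalling, which is the question these genes bear on. The promoter that drives the mutant protein, the THC dose, the sex and the age at collection are not given in the sources used here. The control mice have no genotype entry and were placed by their titles. Since no source says that the 3 libraries of a group are 3 animals, the spread behind each p-value may be technical.

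NF-kB is a family of dimeric transcription factors that IkB proteins hold inactive in the cytoplasm. Tumour necrosis factor, interleukin-1 and Toll-like receptors activate a kinase complex that marks IkB for degradation, and the freed dimers enter the nucleus and switch on adhesion molecules, cytokines, chemokines, survival factors and their own inhibitors. In the brain the pathway is best known in microglia, astrocytes and the cells of vessels and choroid plexus, where its targets let leukocytes adhere and spread the inflammatory signal.

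Total expected counts were 33165903 to 41389957 per library. Levels are given as CPM, counts scaled to the size of the library with TMM factors. The hippocampal neuron markers were all detected, with a summed level of 539 to 1056 CPM, lowest in mutant THC 3. That library also stood apart in striatal neuron markers, with a summed level of 4435 CPM, beside 562 CPM in mutant vehicle 3 and 164 to 193 CPM in the other 10 libraries. Astrocyte markers summed to 4539 to 5848 CPM and mural cell markers to 178 to 216 CPM. Oligodendrocyte markers summed to 4603 to 7392 CPM in mutant THC and 6255 to 7077 CPM in mutant vehicle, and to 3496 to 5202 CPM in control THC and 4507 to 5735 CPM in control vehicle. Choroid plexus markers differed most. Their summed level was 4960 to 16824 CPM in mutant THC 1 and 3, all 3 mutant vehicle libraries and control THC 2, and 328 to 408 CPM in the other 6 libraries. The library numbers in the labels run from 1 to 5 and 12 for THC and from 6 to 11 for vehicle. The labels do not say what these numbers stand for. If they give an order of handling, treatment and that order cannot be told apart.

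Promoter windows from 250 bases before to 50 bases after the annotated start (RefSeq, GRCm38.p6) were found for 8 of the 10 genes, in 9 windows. They were searched on both strands for the kappa-B decamer consensus and for the related palindrome GGAANTTCC, the kinds of element that NF-kB dimers bind. At least 1 of them was found for 4 of the 8 genes, Icam1, Tnfaip3, Csf1 and Sod2, while 5.87% of all 27025 genes with such windows have one. A match describes the letters and not a bound site. The windows of these 4 genes are shown because they are the members with a match, and the matches are in capitals.
Icam1: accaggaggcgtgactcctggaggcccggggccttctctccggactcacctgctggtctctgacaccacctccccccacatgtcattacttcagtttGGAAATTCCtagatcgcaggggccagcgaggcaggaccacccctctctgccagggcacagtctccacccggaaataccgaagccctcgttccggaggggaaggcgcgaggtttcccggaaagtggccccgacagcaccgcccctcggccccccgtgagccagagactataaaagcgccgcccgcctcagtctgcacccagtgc
Tnfaip3: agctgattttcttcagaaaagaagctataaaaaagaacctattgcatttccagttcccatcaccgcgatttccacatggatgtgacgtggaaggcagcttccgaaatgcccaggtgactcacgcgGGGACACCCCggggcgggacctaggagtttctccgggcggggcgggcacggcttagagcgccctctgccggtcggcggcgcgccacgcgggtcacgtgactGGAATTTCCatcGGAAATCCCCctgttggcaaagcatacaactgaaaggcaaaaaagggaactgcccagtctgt
Csf1: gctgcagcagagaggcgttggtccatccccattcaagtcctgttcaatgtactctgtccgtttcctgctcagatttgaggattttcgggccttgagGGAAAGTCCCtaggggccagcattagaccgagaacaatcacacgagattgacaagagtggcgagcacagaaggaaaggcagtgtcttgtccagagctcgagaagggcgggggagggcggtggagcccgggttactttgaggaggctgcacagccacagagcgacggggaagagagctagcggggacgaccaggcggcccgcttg
Sod2: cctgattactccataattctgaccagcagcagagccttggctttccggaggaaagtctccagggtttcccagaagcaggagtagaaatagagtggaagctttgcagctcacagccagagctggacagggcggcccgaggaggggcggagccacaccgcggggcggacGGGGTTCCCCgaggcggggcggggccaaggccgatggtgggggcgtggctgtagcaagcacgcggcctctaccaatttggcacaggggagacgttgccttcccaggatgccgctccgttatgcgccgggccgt
The Icam1 window lies at chr9:21015690-21015989 on the plus strand, and its palindrome GGAAATTCC spans -153 to -145 relative to the start. The Tnfaip3 window, at chr10:19015361-19015660 on the minus strand, holds the palindrome GGAATTTCC at -24 to -16 and decamers at -125 to -116 and -12 to -3. The decamer in the Csf1 window, at chr3:107760420-107760719 on the minus strand, reads GGGACTTTCC on the opposite strand and spans -154 to -145. The Sod2 window, at chr17:13007589-13007888 on the plus strand, holds GGGGTTCCCC at -83 to -74, where the decamer is matched on both strands. Over all 32851 windows the decamer was in 4.51%, the palindrome in 0.928% and either in 5.15%.

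No member passed the threshold of edgeR's quasi-likelihood test, an adjusted p under 0.05, in any of the 6 comparisons. The adjustment was that of Benjamini and Hochberg over all 15802 genes tested. Of the 9 members that passed the count filter 0 were called, and Ccl2 did not pass it. EdgeR called 0% of all genes for THC in mutants, for THC in controls and for the interaction, and 0.00633% in each of the other 3 comparisons. Limma-voom called 0 members and 0% of all genes. DESeq2 called 1 member, Vcam1, in mutant vehicle against control vehicle, where it called 4.99% of all genes. In the other comparisons it called 0.019% for THC in mutants, 0.0759% for THC in controls, 0.0443% for genotype under THC, 0.215% for the interaction and 1.06% for mutant THC against control vehicle. At an unadjusted p under 0.05 edgeR gave 0 to 4 members per comparison, against 5.73% to 17.8% of all genes. The 4 were in mutant vehicle against control vehicle, where the share was 17.8%. Icam1 was lower in mutant THC than in mutant vehicle in every library, and Csf1 was lower there than in mutant vehicle and in control THC. Vcam1 was high in the libraries with high choroid plexus markers. Ccl2 was above 4 counts in 2 of the 12 libraries. Per kilobase of transcript, the median level over the 12 libraries was 38.2 CPM for Sod2, 12.8 for Vcam1, 8.10 for Csf1, 1.42 for Tnfaip3 and 1.12 for Icam1. On the same scale Birc3 was at 0.765, Traf1 at 0.267, Tnfaip2 at 0.224, Il1b at 0.222 and Ccl2 at 0.0618. The ranges of Sod2, Vcam1 and Csf1 did not overlap those of their neighbours in this order. Tnfaip3 overlapped Icam1 and Icam1 overlapped Birc3. Birc3 lay above Traf1, and the ranges of Traf1, Tnfaip2 and Il1b overlapped each other. Ccl2 ran from 0.0318 to 2.78.

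**Figure D1:**
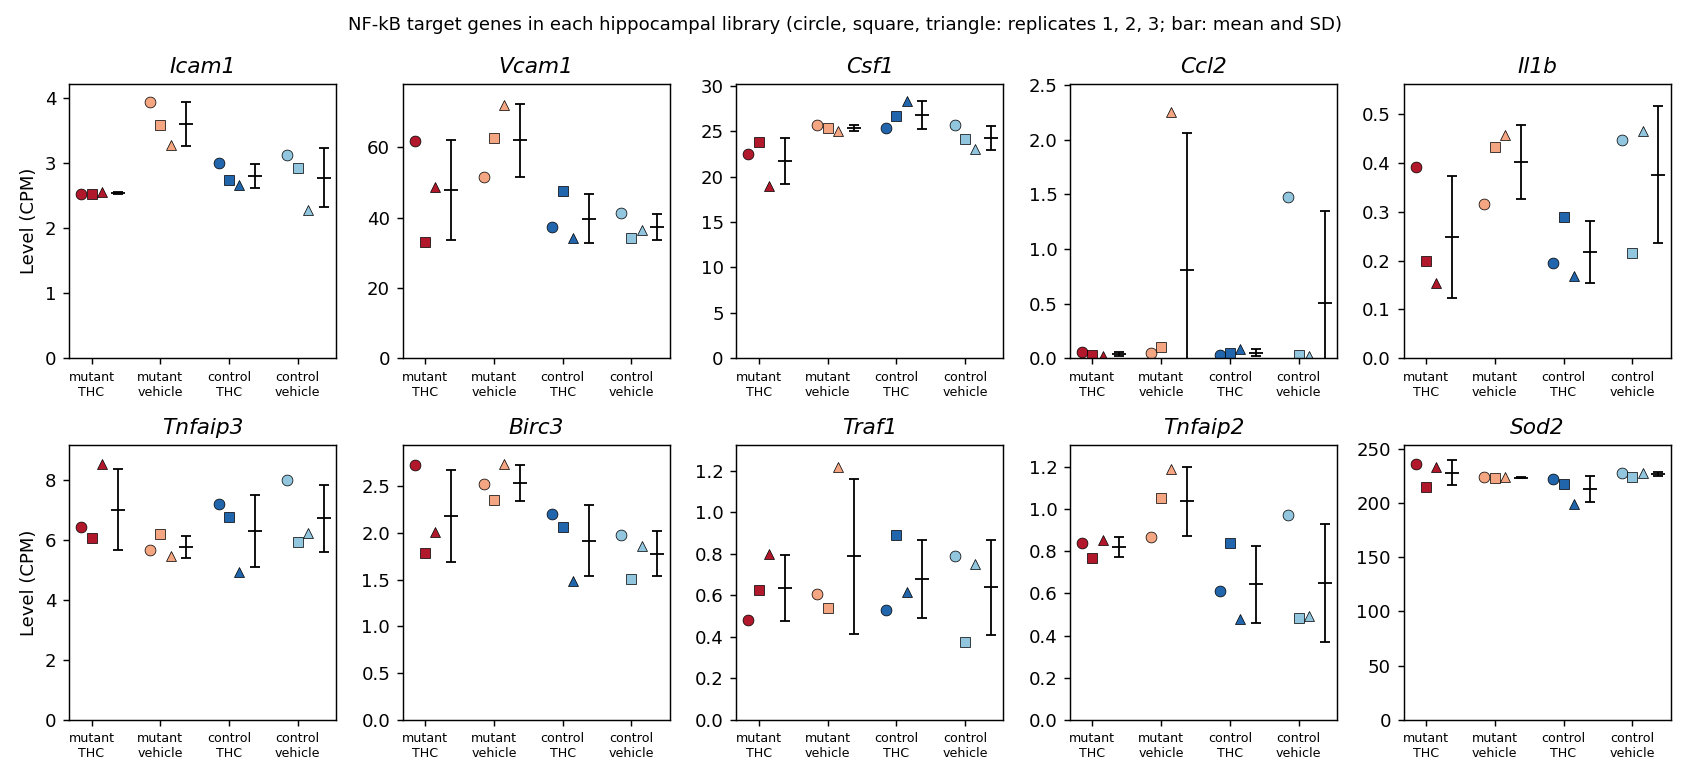
Level of each of the 10 NF-kB target genes in CPM (y axis, from 0) in the 12 libraries, by group along the x axis. Points are libraries, with circle, square and triangle for replicates 1, 2 and 3, and the bar is the mean with its SD (n = 3, cut at 0 for Ccl2). The 3 mutant THC libraries sit at 2.52 to 2.56 CPM of Icam1, below the 3 mutant vehicle libraries, and Ccl2 is raised only in mutant vehicle 3 and control vehicle 1.

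Icam1 (chr9:21015940-21028814) encodes the intercellular adhesion molecule that integrins on leukocytes and microglia bind. It was at 2.52, 2.53 and 2.56 CPM in the 3 mutant THC libraries, against 3.94, 3.59 and 3.27 CPM in mutant vehicle. In control mice it was at 3.01, 2.74 and 2.66 CPM after THC and at 3.13, 2.93 and 2.27 CPM after vehicle. The mutant groups did not overlap, with THC lower in every library, while the control groups overlapped. The group means were 2.54 ± 0.0169 CPM in mutant THC and 3.60 ± 0.333 CPM in mutant vehicle, and 2.80 ± 0.182 CPM in control THC and 2.78 ± 0.448 CPM in control vehicle (SD, n = 3 each). In mutant mice the THC log2 fold change was -0.51 ± 0.14 (SE, n = 3 per group, edgeR adjusted p = 0.81, unadjusted p = 0.0045), the rank of that p being 63 of 15802 genes, and in control mice it was 0.01 ± 0.14 (adjusted p = 0.99). Mutant vehicle was above control vehicle in every library (0.37 ± 0.14, adjusted p = 0.21), whereas mutant THC was below control THC in every library (-0.14 ± 0.14, adjusted p = 0.73). In counts the THC groups overlapped, at 84, 89 and 99 in mutant THC and 108, 114 and 95 in control THC. Their separation in CPM thus rested on the scaling to library size. The vehicle difference was 0.25 without control vehicle 3 and the THC difference -0.09 without control THC 1. The test of the difference between these effects, the interaction, gave -0.52 ± 0.20 (adjusted p = 0.73 by edgeR, unadjusted p = 0.026). Leaving out any single library kept the THC difference in mutants between -0.57 and -0.43. With the choroid plexus score as a covariate it was -0.54 (adjusted p = 0.88).

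Vcam1 (chr3:116110020-116129688) encodes the vascular cell adhesion molecule, the ligand of the integrin that pairs Itga4 with Itgb1, and is made by activated endothelium and by choroid plexus epithelium. It was at 61.9, 33.2 and 48.6 CPM in mutant THC and at 51.5, 62.5 and 72.2 CPM in mutant vehicle. Control libraries had 37.4, 47.5 and 34.3 CPM after THC and 41.3, 34.3 and 36.4 CPM after vehicle. Every mutant vehicle library was thus above every library of both control groups, and the other groups overlapped. Mutant vehicle against control vehicle gave a log2 fold change of 0.73 ± 0.21 (SE, n = 3 per group, adjusted p = 0.16 by edgeR), and DESeq2 called it (adjusted p = 0.019). THC gave -0.37 ± 0.21 in mutant mice (edgeR adjusted p = 0.81) and 0.09 ± 0.21 in control mice (adjusted p = 0.95). The value in mutant mice was -0.60 without mutant THC 1 and -0.17 without mutant THC 2. The choroid plexus markers moved with Vcam1 across the groups. The 6 libraries with 4960 CPM or more of those markers had 47.5 to 72.2 CPM of Vcam1, and the 6 with at most 408 CPM had 33.2 to 41.3 CPM, so the ranges did not overlap. With the choroid plexus score as a covariate the genotype difference under vehicle was 0.07 (adjusted p = 0.99) and the THC difference in mutants -0.15 (adjusted p = 0.88). The choroid plexus markers summed to 6103 to 16824 CPM in mutant vehicle and 328 to 408 CPM in control vehicle. Under vehicle, genotype and choroid plexus content therefore cannot be told apart by this covariate. In bulk tissue, fewer cells of a type and less RNA per cell cannot be told apart. Summed endothelial markers were at 212 to 241 CPM in mutant THC, 193 to 217 CPM in mutant vehicle, 222 to 227 CPM in control THC and 190 to 206 CPM in control vehicle, so mutant vehicle and control vehicle overlapped in them.

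**Figure D2:**
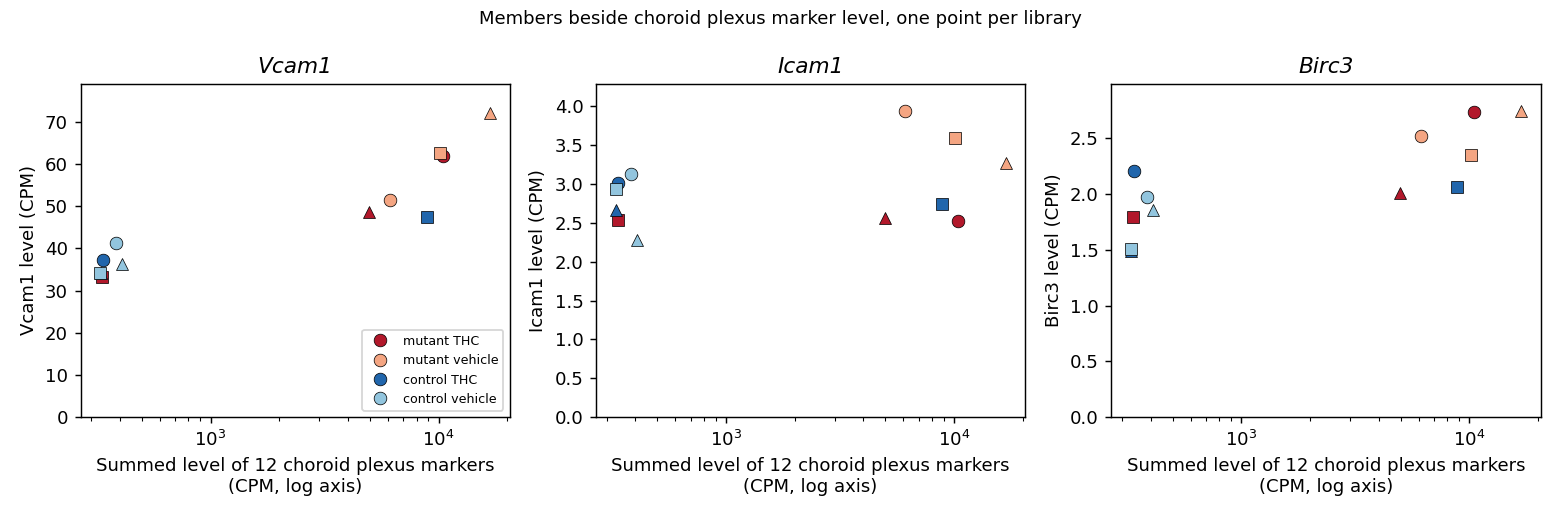
Level in CPM of Vcam1, Icam1 and Birc3 (y axes, from 0) against the summed level of 12 choroid plexus markers (x axis, CPM, log scale), 1 point per library, coloured by group with the marker shapes for replicates 1, 2 and 3. Vcam1 is at 47.5 to 72.2 CPM in the 6 libraries on the right and 33.2 to 41.3 CPM in the 6 on the left, while the Icam1 values of both sides overlap.

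Csf1 (chr3:107741048-107760469) encodes colony stimulating factor 1, a ligand of the receptor Csf1r on which microglia depend. Mutant THC libraries had 22.5, 23.8 and 18.9 CPM, against 25.7, 25.3 and 25.1 CPM in mutant vehicle. Control THC libraries had 25.3, 26.7 and 28.3 CPM, against 25.6, 24.1 and 23.0 CPM in control vehicle. Mutant THC was below both mutant vehicle and control THC without overlap. The log2 fold change was -0.22 ± 0.08 for THC in mutant mice (SE, n = 3 per group, edgeR adjusted p = 0.81) and 0.14 ± 0.08 in control mice (adjusted p = 0.75). Mutant THC against control THC gave -0.30 ± 0.08 (adjusted p = 0.55 by edgeR, rank 70 of 15802 genes by p), mutant vehicle against control vehicle 0.07 ± 0.08 (adjusted p = 0.71), and the interaction -0.37 ± 0.12 (adjusted p = 0.68). Mutant THC 3, the library with striatal markers, was the lowest. Without it the THC difference in mutants was -0.13, against -0.29 without mutant THC 2.

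Il1b (chr2:129364569-129371164), the gene of the cytokine interleukin-1 beta, had few counts. It had 13, 7 and 6 counts in mutant THC and 12, 16 and 18 counts in mutant vehicle. Control THC libraries had 7, 12 and 6 counts, and control vehicle libraries 17, 8 and 18. The group means were lower after THC in both genotypes, but THC and vehicle overlapped within each. The THC log2 fold changes were -0.70 ± 0.42 in mutant mice and -0.77 ± 0.42 in control mice (SE, n = 3 per group, edgeR adjusted p = 0.81 and 0.74), neither past the threshold. The value in mutant mice was -1.17 without mutant THC 1 and -0.45 without mutant THC 3.

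Ccl2 (chr11:82035577-82037452) encodes the chemokine that draws monocytes through the receptor Ccr2. It had 2, 1 and 1 counts in mutant THC and 2, 4 and 89 counts in mutant vehicle. It had 1, 2 and 3 counts in control THC and 56, 1 and 1 counts in control vehicle. Mutant vehicle 3 and control vehicle 1, of different genotypes, were therefore the only libraries above 4 counts. The same 2 libraries were high in Ccl7, the neighbouring chemokine gene, with 52 and 40 counts against 1 to 4 in the other 10. They were also high in Saa3, an acute-phase serum amyloid gene, with 40 and 21 counts against at most 1, and in Il1rn, the interleukin-1 receptor antagonist gene, with 28 and 16 counts against at most 2. Ccl7, Saa3 and Il1rn belonged to lists of NF-kB-induced genes and of partners of the members, and were singled out after their values were seen. Tested without the count filter, Ccl2 passed in no comparison (edgeR adjusted p of 0.49 or above). Summed microglia markers were at 552 and 583 CPM in mutant vehicle 3 and control vehicle 1, within the 482 to 586 CPM of all libraries, and summed perivascular macrophage markers were at 31.0 and 21.4 CPM within 13.9 to 31.2 CPM. The 9 blood leukocyte markers summed to 10.04 and 7.92 CPM in these libraries, of which mutant vehicle 3 was the highest of all, and to 5.27 to 9.31 CPM in the rest. Their part in the Ccl2 counts was not tested.

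**Figure D3:**
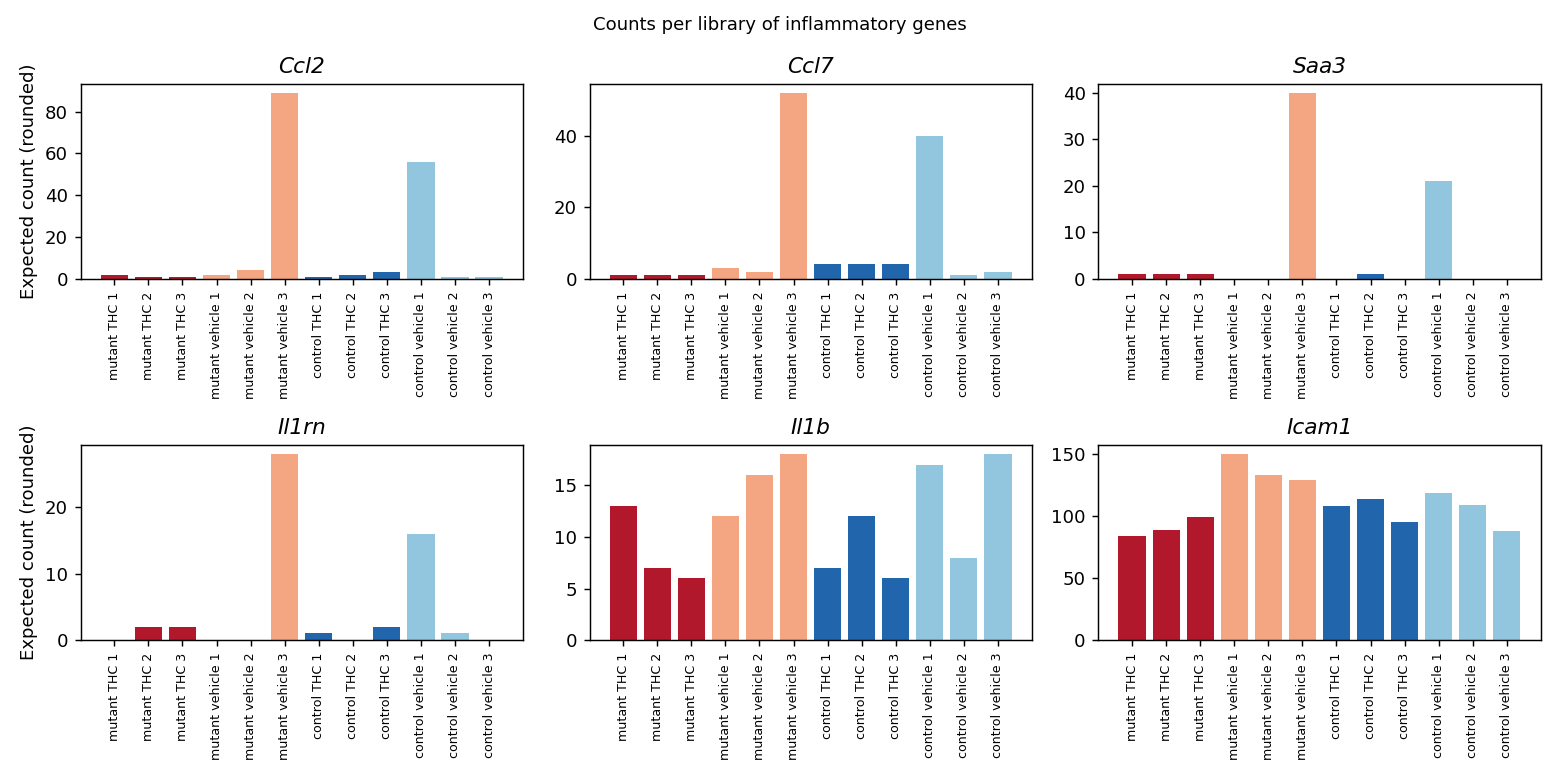
Rounded expected counts (y axes, from 0) of Ccl2, Ccl7, Saa3, Il1rn, Il1b and Icam1 in each of the 12 libraries (x axis), with bars coloured by group. Mutant vehicle 3 and control vehicle 1 carry most counts of the first 4 genes, with 89 and 56 of Ccl2, but do not stand apart in Il1b or Icam1.

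Tnfaip3 (chr10:19000910-19015410) encodes A20, a ubiquitin-editing enzyme that shuts off signalling from receptors to NF-kB. It was at 6.43, 6.05 and 8.54 CPM in mutant THC, against 5.64, 6.19 and 5.45 CPM in mutant vehicle. Control libraries had 7.19, 6.75 and 4.93 CPM after THC and 8.004, 5.94 and 6.23 CPM after vehicle. All groups overlapped, and the mean was higher in mutant THC than in mutant vehicle. The THC log2 fold change was 0.28 ± 0.18 in mutant mice and -0.10 ± 0.18 in control mice (SE, n = 3 per group, edgeR adjusted p = 0.81 and 0.94), with an interaction of 0.38 ± 0.25 (adjusted p = 0.79). The highest value was again that of mutant THC 3, and without it the difference in mutants was 0.12.

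Birc3 (chr9:7847468-7873205) encodes cIAP2, a ubiquitin ligase recruited to tumour necrosis factor receptors that promotes survival. Traf1 (chr2:34941750-34961812) encodes an adaptor of the same receptors. Birc3 was at 2.73, 1.79 and 2.01 CPM in mutant THC and at 2.52, 2.35 and 2.74 CPM in mutant vehicle, against 2.202, 2.07 and 1.49 CPM in control THC and 1.97, 1.504 and 1.86 CPM in control vehicle. Mutant vehicle did not overlap control vehicle. That comparison gave a log2 fold change of 0.51 ± 0.20 (SE, n = 3 per group, edgeR adjusted p = 0.23), which was 0.18 with the choroid plexus score as a covariate. As for Vcam1, that score and genotype cannot be told apart in this comparison. THC gave -0.22 ± 0.20 in mutant and 0.11 ± 0.21 in control mice (edgeR adjusted p = 0.86 and 0.94), and the value in mutant mice was -0.41 without mutant THC 1 and -0.10 without mutant THC 2. Birc3 values were not whole in 6 of 12 libraries, as happens where RSEM divides reads between genes, and its level is uncertain to that extent. Traf1 was at 0.481, 0.625 and 0.8002 CPM in mutant THC and at 0.604, 0.540 and 1.22 CPM in mutant vehicle. Control libraries had 0.530, 0.889 and 0.617 CPM after THC and 0.790, 0.376 and 0.750 CPM after vehicle, and all 4 groups overlapped. Mutant vehicle against control vehicle gave 0.30 ± 0.39 (edgeR adjusted p = 0.71), which rested on mutant vehicle 3 and was -0.16 without it.

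Tnfaip2 (chr12:111442450-111455018) encodes a cytoplasmic protein induced by tumour necrosis factor that takes part in forming membrane nanotubes. It was at 0.841, 0.767 and 0.852 CPM in mutant THC, against 0.866, 1.054 and 1.19 CPM in mutant vehicle, and the lowest mutant vehicle value lay just above the highest mutant THC value. Both of those libraries had 33 counts, so the separation rested on the scaling to library size. Control libraries had 0.613, 0.841 and 0.477 CPM after THC and 0.974, 0.484 and 0.491 CPM after vehicle. Mutant vehicle against control vehicle gave a log2 fold change of 0.67 ± 0.30 (SE, n = 3 per group, edgeR adjusted p = 0.28), with overlapping groups. It was 1.09 without control vehicle 1 and 0.21 with the choroid plexus score as a covariate, though that score and genotype cannot be told apart there. THC gave -0.34 ± 0.30 in mutants and -0.01 ± 0.31 in controls (edgeR adjusted p = 0.85 and 0.998), and -0.22 in mutants without mutant vehicle 3.

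Sod2 (chr17:13007839-13018119) encodes the mitochondrial superoxide dismutase, which converts superoxide to hydrogen peroxide. It was the steadiest member, at 199 to 236 CPM over the 12 libraries. It was at 236, 215 and 233 CPM in mutant THC and at 224, 223 and 224 CPM in mutant vehicle. Control libraries had 222, 218 and 199 CPM after THC and 228, 225 and 228 CPM after vehicle. Control THC lay below control vehicle without overlap, by a log2 fold change of -0.09 ± 0.05 (SE, n = 3 per group, edgeR adjusted p = 0.76), and mutant vehicle lay below control vehicle by less, at -0.02 ± 0.05 (adjusted p = 0.86). Sod2 expected counts were not whole in all 12 libraries, so its level too may include divided reads. The same holds for Vcam1 in 5 libraries, Csf1 in 2 and Tnfaip3 in 1.

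**Figure D4:**
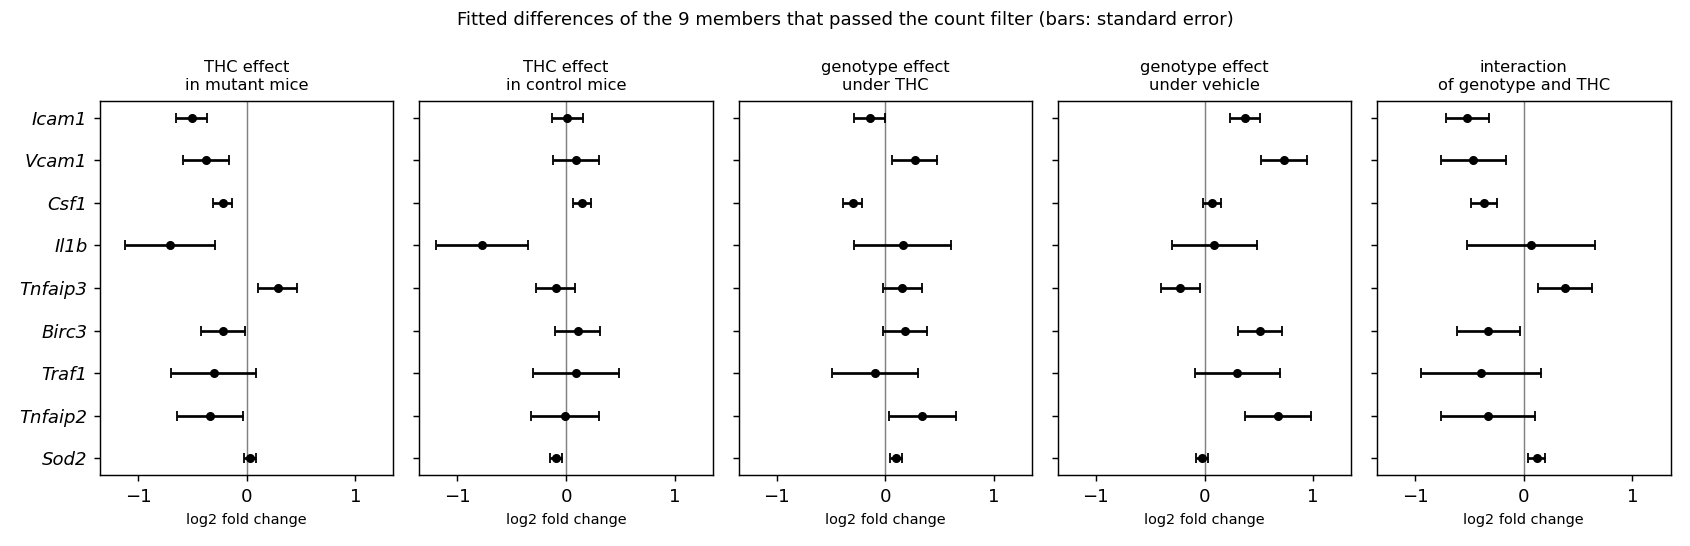
Log2 fold change (x axes) of the 9 members that passed the count filter (rows) in 5 comparisons, with the standard error as bars, from the edgeR fit of all 12 libraries. In mutant mice after THC Icam1 is at -0.51 and Csf1 at -0.22, and under vehicle the mutant against control difference of Vcam1 is at 0.73.

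For the 9 members tested, the comparisons, which share libraries, are set side by side with all genes tested. The members also varied together over the 12 libraries, so counts of members are not counts of separate results. Pearson r of their log2 CPM ran from 0.87 for Vcam1 and Birc3 to -0.69 for Csf1 and Sod2. For THC in mutant mice 2 members were above 0, against 47.5% of all genes, with a median log2 fold change of -0.31 beside -0.01 over all genes. Mutant THC lay wholly below mutant vehicle in 3 of them (Icam1, Csf1 and Tnfaip2), against 4.39% of all genes, and wholly above in 0, against 4.08%. An unadjusted p under 0.05 was found for 2 members, against 5.73% of all genes. The 3 genes that lay wholly lower encode an adhesion molecule, a growth factor and a membrane nanotube protein. Tnfaip2 was separated only after scaling to library size. All 11 marker lists overlapped in this comparison. In mutant THC and mutant vehicle, meningeal fibroblast markers summed to 114 to 252 and 248 to 326 CPM, and perivascular macrophage markers to 13.9 to 22.9 and 21.2 to 31.2 CPM. Choroid plexus markers were at 335 to 10420 and 6103 to 16824 CPM, and endothelial markers, higher on average after THC, at 212 to 241 and 193 to 217 CPM. Their part in the counts was not tested. For THC in control mice 5 members were above 0, against 50.2% of all genes, with a median of 0.01 beside 0.00. Sod2 alone was wholly lower, against 8.06%, 0 were wholly higher, against 8.3%, and 0 had an unadjusted p under 0.05, against 7%. Of the 11 marker lists 3 did not overlap in this comparison. Endothelial markers summed to 222 to 227 CPM in control THC and 190 to 206 CPM in control vehicle, meningeal fibroblast markers to 195 to 206 CPM in control THC and 120 to 149 CPM in control vehicle, and astrocyte markers to 5167 to 5294 CPM in control THC and 5750 to 5848 CPM in control vehicle. Their part in the counts was not tested. Between mutant vehicle and control vehicle 7 members were above 0, against 48.9% of all genes, with a median of 0.30 beside -0.01. There 3 (Icam1, Vcam1 and Birc3) were wholly higher, against 15.3% of all genes, and Sod2 was wholly lower, against 12.7%. An unadjusted p under 0.05 was found for 4 members, against 17.8%. Choroid plexus, meningeal fibroblast and oligodendrocyte markers were also higher in every mutant vehicle library than in every control vehicle library, and astrocyte markers were lower, at 5304 to 5687 CPM in mutant vehicle and 5750 to 5848 CPM in control vehicle. The part of these lists in these counts was not tested. In mutant THC against control THC 6 members were above 0, against 51.4%, 2 (Icam1 and Csf1) were wholly lower, against 5.7%, and 0 were wholly higher, against 4.82%. Icam1 was separated there only after scaling to library size. An unadjusted p under 0.05 was found for 1 member, against 8.98%. Microglia markers alone of the 11 lists did not overlap there, at 542 to 586 CPM in mutant THC and 488 to 532 CPM in control THC, and their part was not tested. In mutant THC against control vehicle 5 members were above 0, against 51.3%, and 0 were wholly higher or wholly lower, against 8.59% and 8.94%, with 0 at an unadjusted p under 0.05, against 14.1%. Endothelial markers (212 to 241 CPM in mutant THC, 190 to 206 CPM in control vehicle) and striatal neuron markers (178 to 4435 CPM in mutant THC, 168 to 171 CPM in control vehicle) did not overlap there. In the interaction 3 members were above 0, against 51.3%, and 2 had an unadjusted p under 0.05, against 6.58%.

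Of 12 tested genes for NF-kB subunits, IkB proteins and IkB kinases, out of 13 listed, edgeR, DESeq2 and limma-voom called 0 in any comparison. With edgeR an unadjusted p under 0.05 was found for 0 of the 12 for THC in mutants (5.73% of all genes), 1 for THC in controls (7%), 2 for genotype under vehicle (17.8%), 2 for genotype under THC (8.98%), 1 for the interaction (6.58%) and 1 for mutant THC against control vehicle (14.1%). Nfkbia, the IkB alpha gene and itself an NF-kB target, was at 42.5, 32.2 and 40.2 CPM in mutant THC and at 34.3, 36.5 and 39.5 CPM in mutant vehicle, against 41.7, 37.3 and 37.2 CPM in control THC and 32.8, 27.2 and 28.3 CPM in control vehicle. Control vehicle was thus below control THC and mutant vehicle in every library. THC in control mice gave a log2 fold change of 0.40 ± 0.11 (SE, n = 3 per group, edgeR adjusted p = 0.70). Nfkbiz, a nuclear IkB gene, gave -0.35 ± 0.12 in mutant THC against control THC (edgeR adjusted p = 0.55), and Nfkb1, the p105 and p50 subunit gene, -0.21 ± 0.08 in the interaction (edgeR adjusted p = 0.73). Rela, the p65 subunit gene, stayed between 12.4 and 14.0 CPM in all libraries. Ptgs2, the COX-2 gene, was at 24.0, 36.1 and 17.0 CPM in mutant THC and 34.9, 23.7 and 31.0 CPM in mutant vehicle, against 28.4, 32.3 and 42.0 CPM in control THC and 26.4, 33.4 and 32.9 CPM in control vehicle, with all groups overlapping.

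Upstream of NF-kB, all 20 listed receptor and adaptor genes were tested and edgeR and limma-voom called 0. DESeq2 called Tlr2 and Tnfrsf1a as higher in mutant vehicle than in control vehicle, where it called 4.99% of all genes. It called Tab2 as higher in mutant THC than in control vehicle, where it called 1.06% of all genes. With edgeR an unadjusted p under 0.05 was found for 3 of the 20 for THC in mutants, all lower (5.73% of all genes), 3 for THC in controls (7%), 6 for genotype under vehicle, 5 of them higher (17.8%), 1 for genotype under THC (8.98%), 4 for the interaction (6.58%) and 2 for mutant THC against control vehicle (14.1%). Tlr2, a receptor for bacterial lipoproteins, was at 2.22, 1.51 and 2.01 CPM in mutant THC and 2.86, 2.97 and 3.12 CPM in mutant vehicle, against 1.48, 2.09 and 1.51 CPM in control THC and 1.79, 1.26 and 1.19 CPM in control vehicle. Mutant vehicle was above every other library. The genotype log2 fold change of Tlr2 under vehicle was 1.08 ± 0.21 (SE, n = 3 per group, edgeR adjusted p = 0.16). The 6 libraries with 4960 CPM or more of choroid plexus markers had 2.01 to 3.12 CPM of Tlr2. The other 6 had 1.19 to 1.79 CPM, so the ranges did not overlap. The part of choroid plexus content in the Tlr2 counts was not tested. Tnfrsf1a, the tumour necrosis factor receptor gene, was at 7.61, 7.97 and 7.51 CPM in mutant vehicle and 5.69, 5.96 and 4.68 CPM in control vehicle (0.50 ± 0.12, edgeR adjusted p = 0.16). Tab2, an adaptor of the kinase Map3k7, gave 0.27 ± 0.07 in mutant THC against control vehicle (edgeR adjusted p = 0.30).

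Of 37 other genes known to be induced by NF-kB 25 were tested, and edgeR and limma-voom called 0. Nfkbia, Nfkb2 and Relb were also in the list of subunits and IkB proteins, so they count in both lists. DESeq2 called C3 as higher in mutant vehicle than in control vehicle and as lower in the interaction. In those comparisons DESeq2 called 4.99% and 0.215% of all genes. With edgeR an unadjusted p under 0.05 was found for 4 of the 25 for THC in mutants, all lower (5.73% of all genes), 5 for THC in controls (7%), 4 for genotype under vehicle (17.8%), 2 for genotype under THC (8.98%), 6 for the interaction, all lower (6.58%), and 3 for mutant THC against control vehicle (14.1%). The complement gene C3 was at 1.59, 1.68 and 1.34 CPM in mutant THC and 3.96, 5.19 and 5.05 CPM in mutant vehicle, against 1.17, 2.86 and 3.93 CPM in control THC and 1.79, 1.64 and 1.06 CPM in control vehicle. All 3 mutant vehicle libraries were above all others, and its interaction was -2.45 ± 0.51 (SE, n = 3 per group, edgeR adjusted p = 0.48). Cebpb, a transcription factor gene of the acute-phase response, was at 8.92, 13.2 and 8.90 CPM in mutant THC and 17.9, 18.4 and 19.2 CPM in control THC (-0.84 ± 0.19, edgeR adjusted p = 0.55). Plau, the urokinase gene, was at 2.81, 3.48 and 2.24 CPM in control THC and 4.69, 5.02 and 4.55 CPM in control vehicle (-0.74 ± 0.18, edgeR adjusted p = 0.70).

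Among 21 tested receptors and partners of the members, out of 22 listed, edgeR and limma-voom called 0. Il1r1, Traf2 and Birc2 were also in the list of upstream receptors and adaptors, and Tnip1 in that of other NF-kB-induced genes. These genes count in both lists. DESeq2 called Ccr2, Sod3 and Cat as higher in mutant vehicle than in control vehicle, where it called 4.99% of all genes. With edgeR an unadjusted p under 0.05 was found for 1 of the 21 for THC in mutants (5.73% of all genes), 3 for THC in controls (7%), 5 for genotype under vehicle (17.8%), 1 for genotype under THC (8.98%), 3 for the interaction (6.58%) and 2 for mutant THC against control vehicle (14.1%). Ccr2, the receptor of Ccl2, had 11, 9 and 9 counts in mutant THC and 39, 18 and 29 counts in mutant vehicle, against 17, 17 and 12 counts in control THC and 6, 8 and 11 counts in control vehicle. In counts, mutant vehicle was above all other libraries, including control vehicle 1, in which Ccl2 was high. The genotype log2 fold change of Ccr2 under vehicle was 1.76 ± 0.34 (SE, n = 3 per group, edgeR adjusted p = 0.16). Sod3, the extracellular superoxide dismutase gene, was at 4.15, 6.13 and 5.33 CPM in mutant vehicle and 2.32, 1.85 and 2.09 CPM in control vehicle (1.32 ± 0.30, edgeR adjusted p = 0.16). It was at 5.80, 2.42 and 4.31 CPM in mutant THC and 2.56, 4.32 and 3.11 CPM in control THC. The 6 libraries with 4960 CPM or more of choroid plexus markers had 4.15 to 6.13 CPM of Sod3, and the other 6 had 1.85 to 3.11 CPM. Cat, the catalase gene, gave 0.35 ± 0.10 in mutant vehicle against control vehicle (edgeR adjusted p = 0.16). Beside these values summed choroid plexus markers were at 6103 to 16824 CPM in mutant vehicle and 328 to 408 CPM in control vehicle, and meningeal fibroblast markers at 248 to 326 CPM in mutant vehicle and 120 to 149 CPM in control vehicle. Their part in these differences was not tested.

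The mean of the standardised log2 CPM over the 9 tested members was 0.26, -0.57 and -0.07 in mutant THC and 0.40, 0.53 and 0.87 in mutant vehicle, against -0.15, 0.21 and -0.98 in control THC and 0.55, -0.75 and -0.31 in control vehicle. Mutant vehicle libraries were positive throughout and the other groups held both signs. The genes at 1 CPM or more whose log2 CPM followed this mean most closely over the 12 libraries were M6pr, the cation-dependent mannose 6-phosphate receptor gene, Elof1, Anxa5, the annexin A5 gene, Rbbp8 and Irf9, an interferon signalling factor gene (Pearson r of 0.92 to 0.94). Their likeness is given as a description only, since the 12 libraries share their groups and their choroid plexus content, and 14050 genes were searched. Anxa5 was at 52.0, 41.9 and 49.1 CPM in mutant THC and 52.2, 50.9 and 63.6 CPM in mutant vehicle, against 44.2, 46.3 and 37.2 CPM in control THC and 48.02, 37.9 and 40.6 CPM in control vehicle. Irf9 was highest in mutant vehicle 3, at 10.4 CPM, and lowest in control THC 3, at 6.45 CPM, the same libraries that were highest and lowest in the mean of the members.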

How the data were processed

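Total RNA of mouse hippocampus was depleted of ribosomal RNA and sequenced as paired ends of 100 bases, per the labels' protocols. Libraries were grouped by title and numbered 1 to 3 within a group. Expected counts for RefSeq genes, estimated by RSEM on mm10 per the file headers, were deposited in 1 table without scaling for depth or length. RSEM 1.2.21, Bowtie2 2.2.2, edgeR 3.10.2, CASAVA 1.8.4 and FastQC are named in the submitters' processing notes. No source used here says whether counting used strand. Symbols came from RefSeq GRCm38.p6 (23011 of 23382 rows) and GENCODE metadata (129 rows), and 235 rows without a symbol held 0.727% of counts.

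Expected counts were rounded, filtered with filterByExpr (15802 genes kept), scaled with TMM (factors 0.989 to 1.01) and tested in R 4.3.3 with edgeR 4.0.16 (robust quasi-likelihood F test) over all 12 libraries with 4 group means. The 6 contrasts were adjusted by Benjamini-Hochberg over all genes, with a threshold of 0.05. A standard error is the log2 fold change divided by the root of F. Alternatives were DESeq2 1.42.0, limma-voom (limma 3.58.1), RLE factors, library totals, no filter, a choroid plexus covariate (the mean log2 CPM of 12 markers) and omitted libraries. Lengths are those of GENCODE transcripts paired with the RefSeq accessions. The code was tested on simulated data. The most alike of 66 library pairs had a chi-square per gene of 11.2, well above sampling noise. No block was used, since label numbers do not recur between groups. Members were chosen by symbol, and they, the 4 pathway lists and 11 marker lists were chosen with earlier results of these data known. Named from the lists were the 3 genes per list with the smallest p over the contrasts, with Nfkbia, Nfkb1, Rela and Ptgs2 for the series title. Named as like the members were the 5 genes with the highest Pearson correlation to their mean.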

Additional observations from a re-analysis of the deposited data

Results flagged for a closer look

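Icam1 stood out because the genotype difference in CPM ran in opposite directions under the 2 treatments in every library: mutant THC (2.52 to 2.56 CPM) lay below control THC (2.66 to 3.01 CPM), and mutant vehicle (3.27 to 3.94 CPM) lay above control vehicle (2.27 to 3.13 CPM). In counts the THC groups overlapped, at 84 to 99 in mutant THC and 95 to 114 in control THC. Their separation thus rested on the scaling to library size. Mutant THC against control THC gave a log2 fold change of -0.14 ± 0.14 (SE, edgeR adjusted p = 0.73). The interaction log2 fold change was -0.52 ± 0.20 (SE, 3 libraries per group, edgeR adjusted p = 0.73), so the difference between the effects did not pass the threshold over all genes.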

How the results depend on the processing

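Of 54 member differences, 34 kept their sign under all 19 alternative settings, and the smallest adjusted p of any member was 0.019 (Vcam1, mutant vehicle against control vehicle, DESeq2). With the choroid plexus covariate, Vcam1 turned to -0.131 for THC in controls and -0.0869 for mutant THC against control vehicle, where Tnfaip3 was -0.0541 and Sod2 -0.0455. Under the same covariate Il1b was -0.763 for genotype under vehicle and -0.0741 under THC, Birc3 was -0.000932 for THC in controls, Tnfaip2 was 0.0264 in the interaction, and Traf1 was -0.0965 for THC in controls, -0.211 for genotype under vehicle and 0.00665 in the interaction. Under vehicle the covariate and genotype cannot be told apart. Without control THC 2 and mutant THC 3 together, Vcam1 was -0.0573 and Traf1 -0.155 for THC in controls, and Tnfaip3 was -0.107 and Sod2 -0.00897 for mutant THC against control vehicle. Sod2 was -0.00163 there with no filter. Tnfaip2 for THC in controls was 0.00224 on library totals and 0.0424 with limma-voom, Traf1 for mutant THC against control vehicle 0.0021 and 0.0449, and Il1b in the interaction -0.0616 with limma-voom.

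Leaving out single libraries gave these ranges of the differences that changed sign. For THC in mutants they were -0.515 to 0.16 for Traf1. For THC in controls they were -0.00664 to 0.259 for Birc3, -0.11 to 0.111 for Icam1, -0.251 to 0.408 for Tnfaip2, -0.207 to 0.0513 for Tnfaip3, -0.174 to 0.274 for Traf1 and -0.057 to 0.184 for Vcam1. For genotype under THC they were -0.00972 to 0.305 for Birc3, -0.307 to 0.426 for Il1b, -0.0138 to 0.263 for Tnfaip3 and -0.3 to 0.155 for Traf1. For genotype under vehicle they were -0.18 to 0.273 for Il1b and -0.16 to 0.515 for Traf1. For the interaction they were -0.400 to 0.342 for Il1b and -0.609 to 0.0653 for Traf1. For mutant THC against control vehicle they were -0.0138 to 0.0506 for Sod2, -0.106 to 0.208 for Tnfaip3 and -0.265 to 0.18 for Traf1.

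The count of all genes called by edgeR was 0 for THC in controls, against 12 with DESeq2 and 1 without the 2 libraries together. For THC in mutants it was 0, against 3 with DESeq2 and 0 to 3 without single libraries. For genotype under vehicle it was 1, against 788 with DESeq2, 0 with limma-voom, the covariate or the 2 libraries left out, and 0 to 6 without single libraries. For genotype under THC it was 1, against 7 with DESeq2, 0 with limma-voom or the 2 libraries left out, and 0 to 2 without single libraries. For the interaction it was 0, against 34 with DESeq2 and 0 to 10 without single libraries. For mutant THC against control vehicle it was 1, against 167 with DESeq2, 0 with limma-voom, the covariate or the 2 libraries left out, and 0 to 1 without single libraries. The cause of these changes was not tested. No paired analysis was possible because the numbers in the labels do not recur between groups. Il1b had 6 to 18 counts per library, and Ccl2, above 4 counts in only 2 libraries, did not pass the filter.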

Other observations

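Across the whole table, 9 of the 16782 rows with at least 30 counts had both mutant vehicle 3 and control vehicle 1 at 2 or more times the highest of the other 10 libraries in CPM, a pattern chosen after the Ccl2 counts were seen. Beside Ccl2, Ccl7, Saa3 and Il1rn they were Ckm, the muscle creatine kinase gene (16 and 16 counts against at most 1), Mmp12, a macrophage metalloproteinase gene (13 and 12 against at most 2), Krt78 (10 and 24 against at most 2), Shox2 (31 and 13 against at most 3) and Msr1, a macrophage scavenger receptor gene (87 and 42 against at most 21).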
